A study of Mus musculus with 20 samples.

Results

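The guanylate-binding proteins examined here were the 10 genes Gbp2 to Gbp11, read by symbol from an estimated count table of 35204 genes in the mouse terminal ileum. RNA from 20 female C57BL/6 mice was sequenced, 5 in each of 4 groups. CD mice ate a defined amino acid diet containing tryptophan (Trp), and TDD mice were switched to the same diet without Trp for 3 weeks. Both of these groups were specific pathogen-free (SPF) and kept their microbiota. CD+ABX and TDD+ABX mice ate the same diets and also received ampicillin, vancomycin, gentamycin, metronidazole and neomycin to remove gut bacteria. These were given in drinking water with added sucrose, which the study does not state for the SPF groups. Mice were 7 weeks old at the start, the diets were the same apart from Trp, and each library came from 1 mouse. Each was made from whole tissue, so fewer cells of a type and less RNA per cell cannot be told apart. The comparisons ask how Trp deficiency changed expression of these genes, and how far that change depended on the microbiota.

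Guanylate-binding proteins are large GTPases that cells make in response to interferons, above all interferon-gamma. They assemble on the membranes that enclose intracellular bacteria and parasites and on bacterial surfaces, where they break open vacuoles and expose lipopolysaccharide and DNA to inflammasomes. In the gut they are known in epithelial cells and macrophages, where they act in defence against invading microbes. Some members, among them Gbp2 and Gbp5, end in a CaaX motif to which a lipid tail is attached for anchoring to membranes.

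Mean levels of all 10 genes were highest in SPF mice on CD. In SPF mice, Gbp6 fell 4.08-fold and Gbp3 fell 2.05-fold on TDD, and Gbp2, Gbp4, Gbp7 and Gbp8 fell by smaller amounts. On CD, ABX lowered Gbp6 2.46-fold and most other members by less. In ABX-treated mice none of the 9 members tested passed q under 0.05 between the diets (edgeR), in a comparison where 1.08% of all genes were lower at that threshold. All 9 were still lower on TDD there, and in 4 the TDD+ABX mice all lay below the CD+ABX mice, beside 2.43% of all genes. The interaction of diet and ABX passed q under 0.05 in none of the 9, beside 0.0368% of all genes. The plot of counts by mouse shows the group levels of every member.

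**Figure D1:**
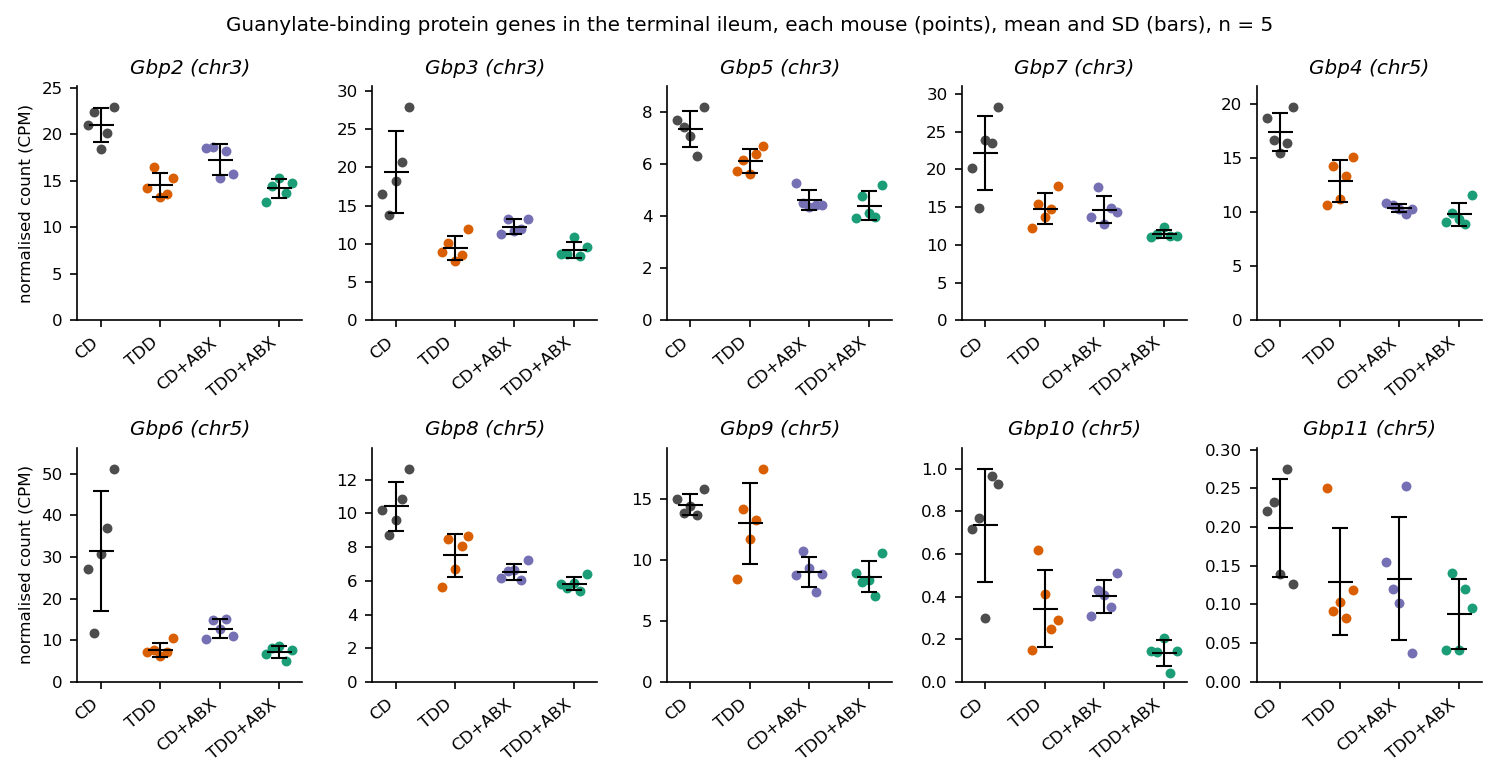
Normalised counts (CPM) of the 10 genes in each mouse, with 1 panel per gene, its chromosome in the panel title and a vertical axis starting at 0. Points are mice, and bars give the mean and SD of the 5 mice of a group. Gbp6 lies between 11.7 and 51.2 CPM in CD mice and between 6.13 and 10.5 CPM in TDD mice, and Gbp10 and Gbp11 stay under 1 CPM in every mouse.

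The genes lie in clusters on a pair of chromosomes (GENCODE M21, GRCm38). On the plus strand of chromosome 3, Gbp5 (chr3:142493978-142522344), Gbp7 (chr3:142530342-142550149), Gbp3 (chr3:142560026-142573209) and Gbp2 (chr3:142620602-142638008) fall within 144 kb, together with Gbp2b, a family gene outside the set of 10. On the minus strand of chromosome 5, Gbp8 (chr5:105014150-105139540), Gbp9 (chr5:105077630-105139539), Gbp4 (chr5:105115767-105139586), Gbp10 (chr5:105215699-105239533), Gbp6 (chr5:105270702-105293698) and Gbp11 (chr5:105323042-105346472) fall within 332 kb. All are annotated as protein coding apart from Gbp11, a polymorphic pseudogene. Coding sequences within the chromosome 5 cluster were 90.01% to 98.4% identical to one another, whereas those on chromosome 3 were 67.0% to 79.6% identical.

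Gbp6 and Gbp10 are the closest pair, with 1803 of 1833 aligned coding bases in common. Their first 90 coding bases are printed with those of Gbp8 to show how much sequence reads from this cluster can share. All are read 5′ to 3′ on the minus strand of GRCm38, each within 1 exon, with capitals at bases that differ from Gbp6. The stretches are chr5:105290931-105291020 for Gbp6, chr5:105236045-105236134 for Gbp10 and chr5:105050958-105051047 for Gbp8.
Gbp6: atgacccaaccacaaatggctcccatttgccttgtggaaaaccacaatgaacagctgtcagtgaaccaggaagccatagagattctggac
Gbp10: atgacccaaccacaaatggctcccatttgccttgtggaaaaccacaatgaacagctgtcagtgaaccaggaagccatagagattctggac
Gbp8: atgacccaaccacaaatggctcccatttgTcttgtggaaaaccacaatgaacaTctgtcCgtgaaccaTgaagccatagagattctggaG
Gbp10 does not differ from Gbp6 over this stretch, and Gbp8 differs at 5 bases.

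kallisto assigns a read by the 31-base words it shares with each transcript, so a gene with few words of its own is hard to separate from its neighbours. Of the distinct 31-base words in the transcripts of Gbp6, 25.8% occurred in no other gene, and for Gbp10 this share was 10.2%. Gbp6 shared 51.4% of its words with Gbp10 and 67.8% with Gm43302, an annotated gene that overlaps both (chromosome 5). The remaining members were easier to tell apart, from 65.7% of words for Gbp11 to 99.2% for Gbp5. The level of Gbp10, and to a lesser degree that of Gbp6, therefore rests on how the program divided shared reads. Counting Gbp6, Gbp10 and Gm43302 as 1 gene, an alternative chosen after the data were seen, left the change of Gbp6 on TDD at -2.01 on the log2 scale in SPF mice (standard error 0.25, q = 4.70e-05).

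**Figure D2:**
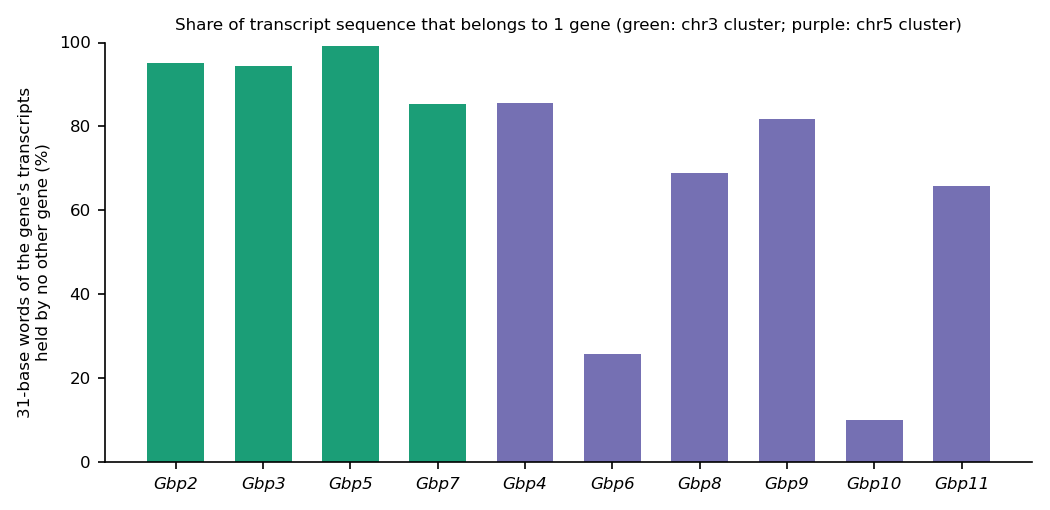
Share (percent, vertical axis) of the distinct 31-base words in each gene's transcripts that no other annotated gene holds. Green bars are genes of the chromosome 3 cluster and purple bars those of the chromosome 5 cluster. The bars of Gbp6 (25.8%) and Gbp10 (10.2%) are the lowest of the 10.

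The promoter table of RefSeq (GRCm38.p6, 250 bases before to 50 after a start) held windows for 4 of the 10 genes, Gbp2, Gbp3, Gbp5 and Gbp7. Interferon signals reach genes through a gamma-activated site and an interferon-stimulated response element, the latter bound by IRF factors. The windows were searched on both strands for TTCNNNGAA (gamma-activated site) and GAAANNGAA (core of the response element, which the printed strand shows as its reverse complement). These letters occurred in 8.30% and 8.56% of all 32851 windows, and both in 1.07%. Gbp5 held TTCNNNGAA at 245 and 52 bases before its start and the core of the response element at 164 bases. Gbp7 held TTCNNNGAA at 106 and 87 bases and the core at 52 bases. Gbp3 had 2 windows, of which the upstream one held a pair of overlapping cores at 44 and 38 bases and the other neither motif. Gbp2 held a core at 58 bases, inside an exon annotated by GENCODE, so that only the 29 bases around it are printed (chr3:142620595-142620623). The other stretches with these matches are printed in GRCm38.p6, plus strand, with motif matches in capitals. Those of Gbp7 and Gbp3 lie before the start of the gene and outside the other genes of the family. That of Gbp5 lies inside the annotated gene, ahead of the start used by RefSeq. No annotated exon of Gbp5 begins within its stretch, but exons that begin before the stretch and run into it were not searched for. The Gbp5 match at 245 bases falls outside the printed stretch. They are chr3:142496754-142496899 (Gbp5), chr3:142530156-142530335 (Gbp7) and chr3:142559864-142560025 (Gbp3), from RefSeq. A match is a description of letters and not evidence of binding.
Gbp5: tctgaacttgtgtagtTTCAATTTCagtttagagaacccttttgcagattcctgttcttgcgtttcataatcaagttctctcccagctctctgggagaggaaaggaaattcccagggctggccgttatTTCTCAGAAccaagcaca
Gbp7: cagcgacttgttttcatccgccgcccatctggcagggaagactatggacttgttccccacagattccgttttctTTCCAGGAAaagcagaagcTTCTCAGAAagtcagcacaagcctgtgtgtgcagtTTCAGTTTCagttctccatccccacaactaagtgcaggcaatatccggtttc
Gbp3: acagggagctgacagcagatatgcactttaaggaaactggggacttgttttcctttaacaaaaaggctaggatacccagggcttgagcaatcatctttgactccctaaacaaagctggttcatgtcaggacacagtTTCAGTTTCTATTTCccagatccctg
Gbp2: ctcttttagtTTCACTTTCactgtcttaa

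Libraries held 36676963 to 58662617 estimated counts. A gene was tested where at least 1 mouse had 0.5 CPM (the count relative to library size), which 16306 genes and 9 of the 10 members met. Gbp11 did not pass, with 2 to 13 counts in every mouse, so it is given by its values alone. Gbp10 passed with 2 to 44 counts per mouse, and the other 8 members had 188 to 2434 counts. Levels are CPM scaled by TMM, given as mean ± SD over 5 mice. Fold changes and adjusted p-values (Benjamini-Hochberg, q) are from edgeR's quasi-likelihood test over the 16306 genes, and a gene was called where q was under 0.05 and the change was at least 2-fold.

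Per unit of transcript length, the members differed in level and changed places between groups. Gbp6 (11.6 ± 5.10 TPM), Gbp3 (11.4 ± 2.55 TPM) and Gbp2 (11.3 ± 1.05 TPM) were the highest in CD mice, and their mice overlapped. Gbp8 followed at 6.95 TPM, below Gbp2 in every CD mouse, and then Gbp4 at 6.0, Gbp7 at 5.53 and Gbp9 at 4.46 TPM, with overlap between each gene and the next from Gbp8 to Gbp9. Gbp5 came after them at 3.01 TPM, below Gbp9 in every mouse, then Gbp10 at 0.605 TPM and Gbp11 at 0.102 TPM. In TDD mice Gbp6 dropped to the seventh place at 2.74 ± 0.68 TPM, and Gbp2 (7.53 ± 0.72 TPM) was the highest, above Gbp3 in every mouse. Gbp2 was also the highest in CD+ABX mice (9.29 TPM) and in TDD+ABX mice (7.87 TPM).

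The 10 genes together came to 60.2, 48.9, 57.8, 62.4 and 75.4 TPM in the 5 CD mice. TDD mice held 28.2, 37.4, 31.6, 32.8 and 40.8 TPM, below every CD mouse. With ABX the sum was 36.9, 41.4, 36.5, 38.2 and 33.9 TPM on CD and 28.3, 30.4, 34.6, 28.5 and 34.6 TPM on TDD. These ABX-treated groups lay below every CD mouse too, and they overlapped each other and the TDD mice.

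**Figure D3:**
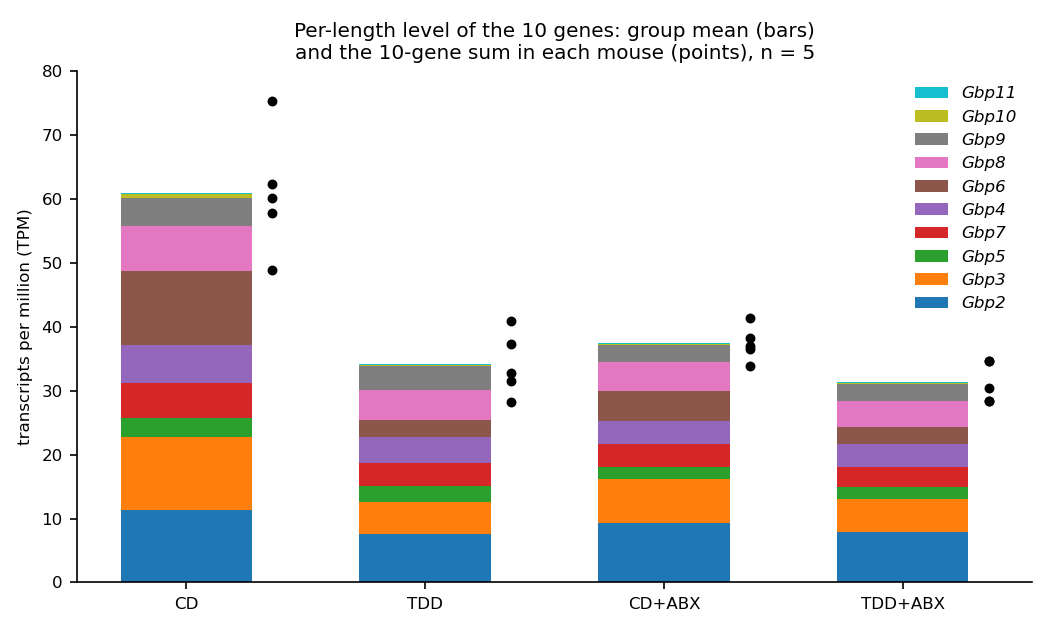
Per-length level (TPM, vertical axis from 0) of the 10 genes in the 4 groups. Stacked bars give group means of each gene, and points beside them the 10-gene sum in each of the 5 mice. CD mice lie between 48.9 and 75.4 TPM and the 3 other groups between 28.2 and 41.4 TPM, and the Gbp6 segment shrinks from 11.6 TPM on CD to 2.74 TPM on TDD.

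The first comparison was TDD against CD in SPF mice, where 2 members were called, both lower, beside 0.993% of all genes called lower. Gbp6 counts were 27.1, 11.7, 30.7, 37.1 and 51.2 CPM in CD mice and 7.20, 7.58, 6.13, 7.21 and 10.5 CPM in TDD mice. Every TDD mouse lay below every CD mouse, and CD mice spread widely (coefficient of variation 45.7%), with mouse 2 lowest and mouse 5 highest. The log2 fold change was -2.03 (standard error 0.27, 95% interval -2.59 to -1.46, q = 9.14e-05). Gbp3 counts were 16.5, 13.8, 18.2, 20.7 and 27.9 CPM in CD mice and 8.88, 10.2, 7.81, 8.58 and 11.9 CPM in TDD mice. These groups did not overlap either, and CD mouse 5 was again the highest. The log2 fold change of Gbp3 was -1.03 (standard error 0.15, interval -1.35 to -0.72, q = 0.000193). Gbp3 dropped under the 2-fold limit, at -0.88 (q = 0.000331), when CD mouse 5 was left out, and also without TDD mouse 3 (-0.98) or TDD mouse 4 (-0.9998).

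A further 4 members fell by less than 2-fold, so that 6 members passed q under 0.05, all lower, beside 7.73% of all genes. Gbp2, which coats vacuoles of intracellular pathogens, had 21.04, 22.4, 18.4, 20.2 and 22.9 CPM in CD mice and 14.2, 16.5, 13.3, 13.5 and 15.3 CPM in TDD mice. The groups were separate and narrow, and Gbp2 fell by 30.6% (log2 fold change -0.53, standard error 0.08, q = 0.000275). Gbp4 went from 17.4 ± 1.74 to 12.9 ± 1.92 CPM (log2 fold change -0.43, q = 0.00603) and Gbp8 from 10.4 ± 1.47 to 7.50 ± 1.29 CPM (-0.47, q = 0.00865), in each case with no overlap of mice. Gbp7, linked to assembly of the phagocyte NADPH oxidase, went from 22.2 ± 4.95 to 14.8 ± 2.06 CPM (-0.58, q = 0.00603), and its mice overlapped because CD mouse 2 had 14.9 CPM. In all, 5 members had TDD mice that did not overlap CD mice and lay below them, where 4.9% of all genes did.

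The other 3 tested members did not pass. Gbp5, which promotes NLRP3 inflammasome assembly, had 7.34 ± 0.69 CPM on CD and 6.12 ± 0.45 CPM on TDD (log2 fold change -0.26, interval -0.46 to -0.06, q = 0.0772). Gbp9 had 14.6 ± 0.87 CPM on CD and 13.0 ± 3.34 CPM on TDD (-0.16, interval -0.46 to 0.15, q = 0.517), and its TDD mice ranged from 8.43 CPM in mouse 1 to 17.5 CPM in mouse 5. Gbp10 had 0.734 ± 0.26 CPM on CD and 0.344 ± 0.18 CPM on TDD (-1.08, q = 0.0512), near the threshold on few counts, and it was called when CD mouse 3, TDD mouse 2 or TDD+ABX mouse 4 was left out, by DESeq2 (-1.09, q = 0.0339, beside 1.93% of all genes called) and where 0.5 CPM was required of 5 mice (-1.09, q = 0.0433). The 9 tested members had a median log2 fold change of -0.53, where that of all genes was 0.01. Gbp11 had 0.199 ± 0.06 CPM on CD and 0.130 ± 0.07 CPM on TDD.

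**Figure D4:**
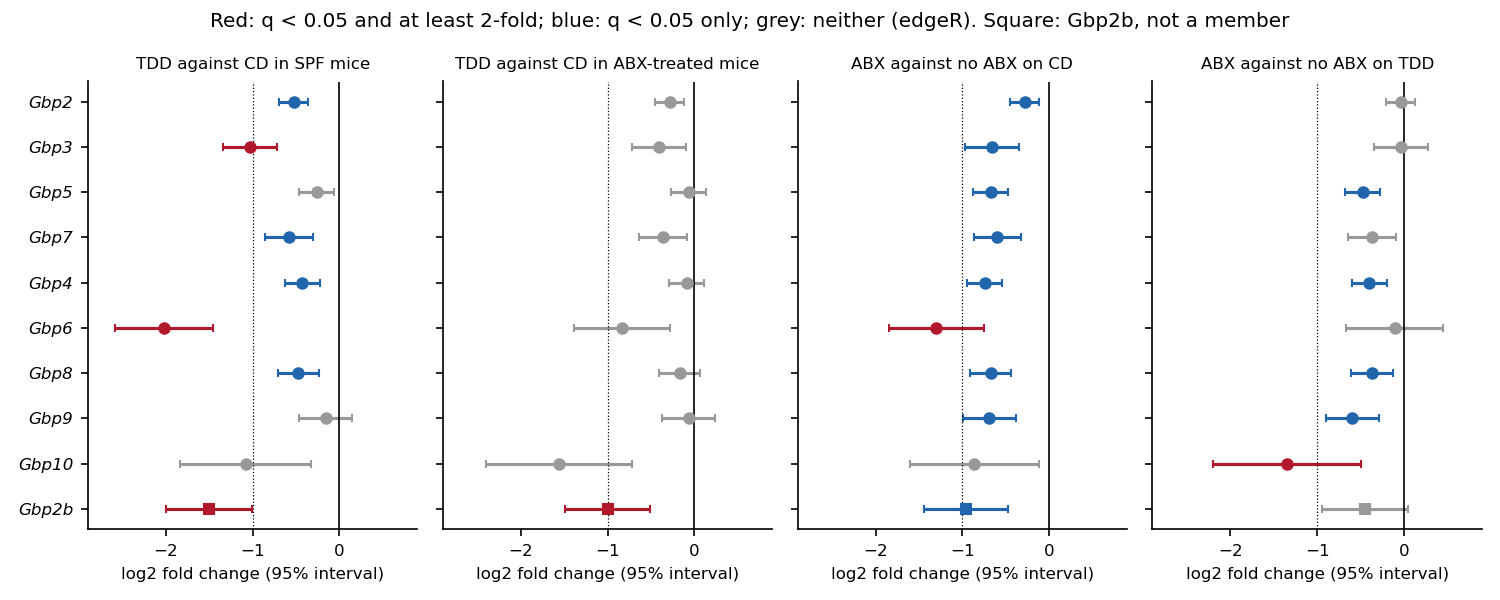
Log2 fold changes (horizontal axis) of the 9 tested members and of Gbp2b, with 95% intervals, in 4 comparisons. Red marks q under 0.05 and at least 2-fold, blue q under 0.05 alone and grey neither, and the dotted line marks a 2-fold decrease and squares mark Gbp2b. Every point lies below 0, and Gbp6 stands at -2.03 in the leftmost panel and at -0.11 in the rightmost.

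In ABX-treated mice the same diets gave no called member and none at q under 0.05, where 0.172% of all genes were called lower and 1.08% were lower at q under 0.05 (edgeR). At an unadjusted p under 0.05, 5 members passed, beside 14.8% of all genes, and DESeq2 called 1 member, Gbp10, beside 0.601% of all genes. Gbp6 counts were 10.2, 14.8, 12.8, 15.2 and 11.1 CPM in CD+ABX mice and 6.67, 8.16, 8.58, 4.95 and 7.63 CPM in TDD+ABX mice. Its groups did not overlap, and the log2 fold change was -0.83 (standard error 0.27, interval -1.39 to -0.28, q = 0.125). Gbp3 had 12.3 ± 0.95 and 9.26 ± 1.05 CPM (-0.41, interval -0.72 to -0.09, q = 0.195), also without overlap. Gbp7 had 14.7 ± 1.82 and 11.5 ± 0.57 CPM (-0.36, q = 0.197), again without overlap. With Gbp10, these made 4 members whose TDD+ABX mice all lay below the CD+ABX mice, where 2.43% of all genes did.

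Gbp10 had 0.309, 0.432, 0.409, 0.350 and 0.509 CPM in CD+ABX mice and 0.145, 0.140, 0.207, 0.0398 and 0.144 CPM in TDD+ABX mice. Its log2 fold change of -1.56 (interval -2.40 to -0.72, q = 0.0533) rested on 14 to 27 counts per mouse on CD and 2 to 10 on TDD, and it was called when any of CD mice 2 or 3 or TDD mice 1 or 2 was left out. The remaining members differed by less. Gbp2 differed by -0.28 (q = 0.0786), Gbp8 by -0.17 (q = 0.529), Gbp4 by -0.09 (q = 0.735), Gbp5 by -0.06 (q = 0.811) and Gbp9 by -0.06 (q = 0.885) on the log2 scale. For Gbp4 the interval ran from -0.29 to 0.12, so a change of 2-fold in either direction lay outside it.

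The effect of ABX was first examined on CD, in a comparison that shares the CD group with that of the diets in SPF mice. Of the 9 tested members 8 passed q under 0.05, all lower, beside 7.43% of all genes, and 1 was called, beside 1.69%. Gbp6, at 31.6 ± 14.4 CPM without ABX and 12.8 ± 2.19 CPM with ABX, was the called gene (log2 fold change -1.30, standard error 0.26, q = 0.00359), and its groups overlapped through CD mouse 2. Gbp4 had 18.7, 16.7, 15.5, 16.4 and 19.7 CPM on CD and 10.9, 10.7, 10.3, 9.86 and 10.3 CPM on CD+ABX. These values were far apart and tight within each group, and the log2 fold change was -0.74 (standard error 0.10, q = 0.000157), with the smallest q of the members. Gbp5 counts were 7.68, 7.42, 7.08, 6.33 and 8.19 CPM on CD and 5.29, 4.51, 4.36, 4.44 and 4.45 CPM on CD+ABX (-0.67, q = 0.000392). Gbp9 had 15.0, 13.9, 14.4, 13.7 and 15.8 CPM on CD and 8.77, 10.8, 9.37, 7.41 and 8.86 CPM on CD+ABX (-0.69, q = 0.00507). Neither gene overlapped between these groups, although both had missed the threshold between the diets in SPF mice.

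Gbp8 (-0.67, q = 0.00109), Gbp3 (-0.66, q = 0.00685) and Gbp7 (-0.60, q = 0.00618) fell by similar amounts, and Gbp2 by 17.6% (-0.28, q = 0.0258). Gbp10 differed by -0.86 (q = 0.121) and did not pass. In 5 members, Gbp3, Gbp4, Gbp5, Gbp8 and Gbp9, all CD+ABX mice lay below all CD mice, where 5.88% of all genes did. The median of the 9 tested members was -0.67.

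On TDD, ABX lowered some members and gave small differences in others. Gbp2 stood at 14.6 ± 1.34 CPM without ABX and 14.2 ± 0.99 CPM with it (log2 fold change -0.04, interval -0.20 to 0.13, q = 0.787), and Gbp3 at 9.48 ± 1.62 and 9.26 ± 1.05 CPM (-0.04, interval -0.35 to 0.28, q = 0.898). Gbp6 stood at 7.73 ± 1.66 and 7.20 ± 1.44 CPM (-0.11, interval -0.66 to 0.45, q = 0.821). All 3 intervals exclude a 2-fold change in either direction. The sign of their differences turned positive in tests of log2 TPM, at 0.06, 0.04 and 0.01 with a pseudocount of 1.

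By contrast, 5 members passed q under 0.05, all lower, where 8.3% of all genes did. Gbp5 had 5.75, 6.16, 5.61, 6.41 and 6.69 CPM on TDD and 3.93, 4.78, 4.13, 3.98 and 5.22 CPM on TDD+ABX. It was the 1 member without overlap (-0.48, q = 0.00405), beside 5.05% of all genes. Gbp9 differed by -0.59 (q = 0.0120), Gbp4 by -0.40 (q = 0.0114) and Gbp8 by -0.37 (q = 0.0349), with overlapping mice. Gbp7 differed by -0.37 (q = 0.0615) and did not pass. Gbp10 was called (-1.34, standard error 0.41, q = 0.0321), where 1.29% of all genes were called lower, from 0.344 ± 0.18 to 0.135 ± 0.06 CPM. That call was lost when any of TDD mice 2 or 3 or TDD+ABX mice 1, 2 or 4 was left out, with log2 fold changes between -1.03 and -1.36, and in tests of log2 TPM its change was -0.11 (q = 0.592, pseudocount 1).

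The members thus had different orders of their 4 group means. In CPM, Gbp2, Gbp3 and Gbp6 had their 2 lowest levels in the TDD groups, as did Gbp10 and Gbp11 on few counts. Gbp4, Gbp5, Gbp8 and Gbp9 had theirs in the ABX-treated groups. Gbp7 did as well, but its means on TDD (14.8 CPM) and CD+ABX (14.7 CPM) were close. In TPM, Gbp10 and Gbp11 were instead lower on CD+ABX (0.212 and 0.0723) than on TDD (0.236 and 0.0737). The order of TDD against CD+ABX was not tested. Whether the effect of diet differed between SPF and ABX-treated mice was tested by the interaction term. It was above 0 in 8 of 9 tested members and largest for Gbp6, at 1.20 (standard error 0.37, interval 0.42 to 1.98, q = 0.284, edgeR). Gbp3 (0.63, q = 0.3202), Gbp4 (0.34, q = 0.430) and Gbp2 (0.24, q = 0.537) were, with Gbp6, the 4 members under 0.05 before adjustment, as 8.9% of all genes were. No member passed q under 0.05 or was called, where 0.0368% and 0.0245% of all genes did, and DESeq2 called none of them, beside 0.313% of all genes. Without CD mouse 2, in which Gbp6 was lowest, the interaction of Gbp6 was 1.43 (q = 0.0400).

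Gbp2b, the family gene left out of the set of 10, lies between Gbp3 and Gbp2. It had 10.998 ± 1.29 CPM on CD, 3.87 ± 0.79 on TDD, 5.66 ± 1.59 on CD+ABX and 2.83 ± 1.09 on TDD+ABX. Its log2 fold change on TDD was -1.51 (q = 0.000397) in SPF mice and -1.0001 (q = 0.0379) in ABX-treated mice, and it was called in both.

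Annotated transcripts of a member carried unequal shares of its counts, as kallisto divided them. Gbp6 counts lay mostly on Gbp6-203, annotated as a nonsense-mediated decay transcript, at 62.0% ± 3.46 in CD mice and 55.9% ± 6.94 in TDD mice. Its protein-coding transcript Gbp6-201 held 26.0% ± 6.94 and 26.6% ± 7.78, and fell from 4.41 ± 2.18 to 1.05 ± 0.47 TPM. The shares of both transcripts overlapped between the diets while their levels fell together. Gbp4 counts lay at 88.5% on a nonsense-mediated decay transcript, Gbp4-202, in CD mice, and Gbp8 counts at 59.1% on a transcript annotated as processed, without a coding sequence. Gbp2 counts were carried by protein-coding Gbp2-201 alone in CD mice, and Gbp3 counts were divided between Gbp3-202 (51.3%) and Gbp3-203 (42.3%), both protein coding.

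Mice of a group differed from one another across the family. CD mouse 5 was the highest of its group in 8 of 9 tested members, and TDD mouse 5 in 7. CD mouse 2 was the lowest CD mouse in 4 members, and TDD mouse 1 the lowest TDD mouse in 5. CD mouse 5 also had the highest summed level of 6 T cell markers (94.0 CPM, where the other CD mice had 30.5 to 64.5) and of 6 cytotoxic and NK cell markers (120 CPM, others 17.5 to 66.9). Its macrophage and dendritic cell sum was the highest too (241 CPM, others 176 to 214), while its B cell (4.46 CPM) and stromal (534 CPM) sums were the lowest. CD mouse 2 had the highest sum of stromal and smooth muscle markers (2083 CPM, other CD mice 534 to 1275) and the lowest of ileal epithelium (5198 CPM, others 8183 to 9371). Its T cell (30.5 CPM), cytotoxic and NK cell (17.5 CPM) and macrophage and dendritic cell (176 CPM) sums were also the lowest of the CD mice, and its endothelial sum (129 CPM) the highest. Without CD mouse 5 the change of Gbp6 on TDD in SPF mice was -1.79 (q = 0.000257), and without CD mouse 2 it was -2.25 (q = 2.35e-06).

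Markers of other cell types, 6 per type and none at 0 in every mouse of a group, moved in some of the same comparisons. Beside them, 7.73% of all genes were lower at q under 0.05 on TDD in SPF mice. In that comparison, 4 of 6 macrophage and dendritic cell markers passed q under 0.05, all lower. Their summed levels were 176 to 241 CPM on CD and 151 to 188 CPM on TDD. T cell markers summed to 30.5 to 94.0 and 26.4 to 40.05 CPM in these groups, with 1 of 6 passing (Cd8b1, -2.33, q = 0.00758). Among cytotoxic and NK cell markers 1 of 6 passed (Nkg7, -1.21, q = 0.0125), with sums of 17.5 to 120 and 23.6 to 32.4 CPM. B cell markers summed to 4.46 to 98.8 and 4.59 to 154 CPM, and none passed. Endothelial markers summed to 107 to 129 and 96.3 to 135 CPM with 1 of 6 lower, stromal markers to 534 to 2083 and 612 to 1610 CPM with 1 of 6 lower (Col1a1, -1.09), and epithelial markers to 5198 to 9371 and 7117 to 8547 CPM with none passing. In ABX-treated mice the stromal marker Col1a1 was lower on TDD too (-0.73, q = 0.0133). The part of these cell types in the Gbp changes was not tested.

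T cell and cytotoxic or NK cell markers were also lower with ABX on CD. In that comparison 7.43% of all genes were lower at q under 0.05 and 1.69% were called lower. T cell sums were 17.2 to 22.4 CPM in CD+ABX mice, below every CD mouse, with 5 of 6 markers lower at q under 0.05 and 4 called, such as Cd3e (-1.63, q = 0.00112). Cytotoxic and NK cell sums were 16.3 to 19.9 CPM, with 4 of 6 markers called lower, such as Nkg7 (-1.81, q = 0.00135). Macrophage and dendritic cell sums were 134 to 212 CPM, with 4 of 6 markers lower. B cell sums were 2.34 to 7.74 CPM, and none of the 6 markers passed (median -3.38). The endothelial marker Vwf was lower with ABX on CD (-0.40, q = 0.00534). On TDD, 3 T cell, 2 macrophage and dendritic cell and 2 endothelial markers were lower with ABX, beside 8.3% of all genes. No cytotoxic or NK cell marker passed there. Of the 6 epithelial markers, 2 rose with ABX. Fabp6, the ileal bile acid-binding protein, had 1.17 ± 0.97 CPM in CD mice and 41.5 ± 59.4 CPM in CD+ABX mice (5.14, q = 0.00431), with an SD above the mean, and rose on TDD too (3.92, q = 0.0163). Slc10a2, the bile acid transporter of the terminal ileum, had 2.35 ± 1.02 and 39.5 ± 27.2 CPM on CD (4.07, q = 7.59e-05) and also rose on TDD (2.65, q = 0.00108). Both genes, which mark the terminal ileum, were thus low in the SPF libraries, while the 6 epithelial markers together came to at least 5198 CPM in every mouse. What these markers contribute to the Gbp differences was not tested.

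RNA levels were then examined for 31 genes of interferon signalling, of which 23 were tested. Such levels do not measure the signal itself, and whether interferon set the Gbp levels here was not tested. Ifng itself had 2 to 10 counts per mouse on CD, 0 to 4 on TDD, 0 to 1 on CD+ABX and 0 to 2 on TDD+ABX, too few to test, as were Ifna1, Ifnb1, Ifnl2 and Ifnl3, with at most 3 counts in a mouse. The receptor genes were tested, with 203 ± 23.9 and 192 ± 7.80 CPM of Ifngr1 (-0.08, q = 0.627) and 224 ± 44.3 and 206 ± 22.6 CPM of Ifngr2 (-0.12, q = 0.544) in CD and TDD mice. Irf1, an interferon-induced transcription factor, had 175 ± 20.4 CPM in CD mice and 134 ± 19.4 CPM in TDD mice and fell by 0.39 log2 units (edgeR, q = 0.0233). This was under 2-fold, and in ABX-treated mice the diets differed by -0.18 for Irf1 (q = 0.470).

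Called genes of interferon signalling were few and moved in both directions. Batf2, an interferon-induced transcription factor, fell on TDD in SPF mice (-1.10, q = 0.000339) and in ABX-treated mice (-1.17, q = 0.00191), and Socs3, an inhibitor of cytokine receptors, rose in SPF mice (2.03, q = 1.40e-05). In all, 4 of the 23 tested genes were lower and 2 higher on TDD at q under 0.05 in SPF mice, with a median of -0.08. At that threshold 7.73% of all genes were lower. Nlrc5, an activator of MHC class I genes, was called lower with ABX on CD (-1.03, q = 0.00431), and no gene of the list was called with ABX on TDD.

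The 18 immunity-related and other interferon-inducible GTPases were all tested. Immunity-related GTPases act beside the guanylate-binding proteins on vacuoles, and Mx1 and Mx2 are antiviral GTPases. In SPF mice on TDD, 13 passed q under 0.05 and 5 were called, all lower, with a median of -0.79. Of all genes, 7.73% were lower at that threshold and 0.993% were called lower. Gm12250 (also known as Irgb10) fell from 9.88 ± 4.64 to 3.21 ± 1.05 CPM (-1.62, q = 0.00235) and Igtp from 36.3 ± 15.8 to 13.1 ± 2.51 CPM (-1.47, q = 0.00102). Mx2 (-1.26, q = 0.0115), F830016B08Rik (-1.24, q = 0.00457) and Ifi47 (-1.04, q = 0.00105) were the others called. Igtp ranged from 14.7 to 59.02 CPM among the CD mice. In ABX-treated mice 1 of 18 (Gvin1, -0.43, q = 0.0199) passed between the diets, where 1.08% of all genes were lower. None was called, and the median was -0.34. ABX on CD lowered 6, of which F830016B08Rik and 9930111J21Rik1 were called (median -0.56), and ABX on TDD lowered 1, 9930111J21Rik2 (-0.80, q = 0.0369; median of the list -0.14). With ABX on CD 7.43% of all genes were lower at q under 0.05 and 1.69% were called lower. On TDD 8.3% were lower with ABX.

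Few genes were called in the lists for inflammasomes and lysis, targeting to vacuoles and lipid tails. Of 12 genes of inflammasomes and lysis, 2 were lower on TDD in SPF mice at q under 0.05, beside 7.73% of all genes, and none was called. They were Casp1, the inflammatory caspase, at -0.53 (q = 2.99e-05) and Pycard, its adaptor, at -0.53 (q = 0.000853). Casp1 was also lower on TDD in ABX-treated mice (-0.37, q = 0.00573). ABX lowered 4 of the 12 on CD and 3 on TDD, with Casp4, the sensor of cytosolic lipopolysaccharide, at -0.82 (q = 0.000543) and -0.85 (q = 0.000534), again with none called. Among all genes, ABX lowered 7.43% on CD and 8.3% on TDD at q under 0.05, and 1.69% and 1.29% were called lower. None of 13 genes for targeting to vacuoles passed between the diets, and Ubd, a ubiquitin-like modifier, was called lower with ABX on CD (-1.82, q = 0.0425) and on TDD (-1.69, q = 0.0432). None of 6 enzymes for lipid tails at CaaX ends was called in any of these comparisons. The plot of list medians sets these groups side by side.

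**Figure D5:**
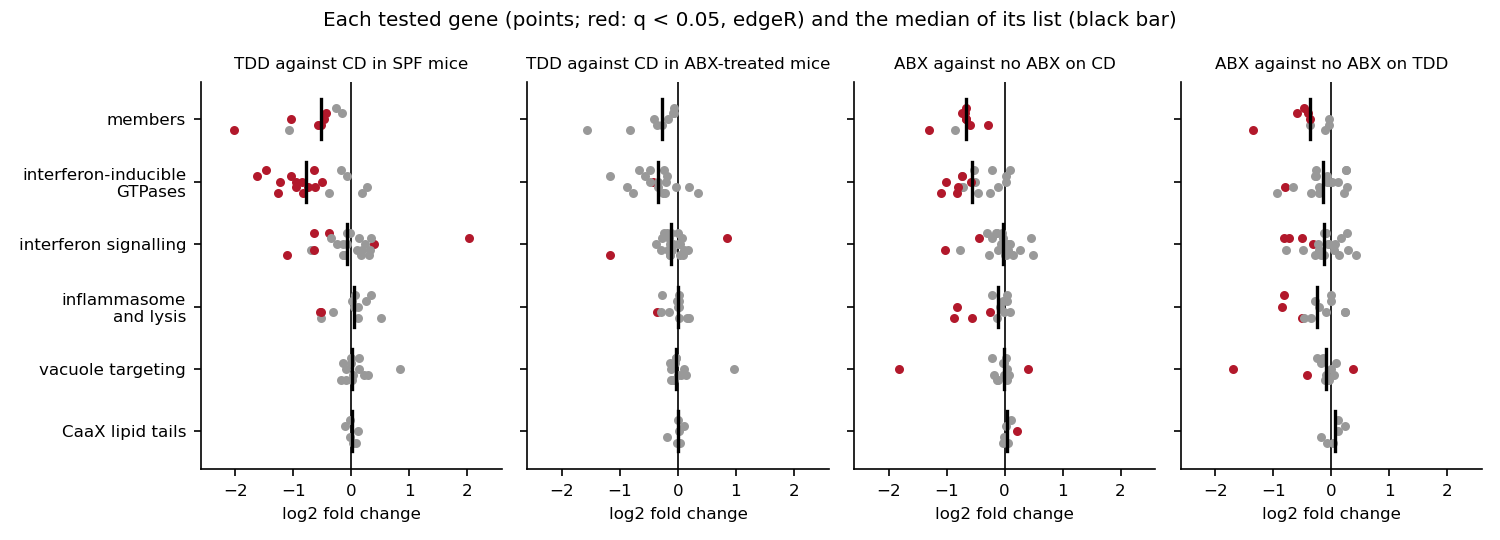
Log2 fold changes (horizontal axis) of the tested genes of 6 lists in 4 comparisons. Points are genes, red where q was under 0.05, and black bars are list medians. In SPF mice on TDD the medians are -0.53 for the members and -0.79 for interferon-inducible GTPases, and -0.08 for interferon signalling, and the medians of the last 3 lists lie near 0.

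Across the 20 mice, other genes were ranked by how closely their centred log2(CPM + 0.5) followed the mean of the tested members, by root mean square difference. Over 16297 genes the nearest were Fbln5 (difference 0.135), Slc9a9 (0.138), H2-T10 (0.139), C1qc (0.151), Tgtp1 (0.155) and C1qb (0.157), where the median of all genes was 0.413. Among the members themselves, Gbp8 (0.109) and Gbp7 (0.114) lay nearest to the mean profile and Gbp6 (0.557) farthest. Each member is part of that mean, so these differences cannot be set against those of the other genes. Fbln5 encodes an elastic fibre protein of the stroma, C1qb and C1qc are complement genes of macrophages, and Tgtp1 is an interferon-inducible GTPase. These are descriptions over mice of 4 groups, without a test.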

How the data were processed

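Poly-A RNA from the terminal ileum of 20 mice, 5 per group, had been sequenced on a NovaSeq instrument, and groups were taken from the sample labels. The authors quantified reads with kallisto 0.44.0 against GRCm38 and deposited estimated counts per gene and, for each mouse, estimated counts and TPM per transcript. The gene table's values equal the rounded sum of transcript estimated counts for 11 of 11 family genes. Gene TPM were the sums over GENCODE M21 transcripts. Annotation came from GENCODE M21 and promoters from RefSeq (GRCm38.p6).

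A gene entered the tests if any 1 mouse reached 0.5 CPM (16306 of 35204 genes), on counts rounded to whole numbers with edgeR 4.0.16 in R 4.3.3: TMM scaling and quasi-likelihood tests of 4 groups in 1 model, with Benjamini-Hochberg adjustment (q). Called means q under 0.05 and at least 2-fold, the thresholds of the study. Libraries held 36676963 to 58662617 counts, so 1 count was at most 0.0273 CPM. Alternatives used DESeq2 1.42.0, limma 3.58.1 (voom, or log2 TPM with a pseudocount of 1 or 0.1), other scalings and filters, a replicate block and the omission of each mouse. Tests were tried on simulated data. In 40 pairs of mice within groups, none looked like a library deposited again.

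The members and lists were chosen with earlier results of these data known. The text names all members, the list genes called in a comparison, Ifng, Ifngr1, Ifngr2 and Irf1, and the 6 genes with the most similar profile; Gvin1, Casp1, Pycard, Casp4, 9930111J21Rik2 and the named marker genes were chosen after their values were seen. A gene that this rule also names is not reported here. Coding identity came from global alignment.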

Additional observations from a re-analysis of the deposited data

Results flagged for a closer look

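In 44 groups of 5 mice looked at (the 10 genes and Gbp2b in 4 groups), 1 mouse stood apart from its group by Dixon's 95% criterion in 3, where chance gives about 1 in 20. Gbp5 in CD+ABX mouse 1 was at 5.29 CPM, and the next mouse at 4.51 CPM. Gbp7 in TDD+ABX mouse 3 was at 12.44 CPM, with the next at 11.45 CPM. Gbp11 in TDD mouse 1 was at 0.2509 CPM, with the next at 0.1189 CPM, which rests on at most 10 counts.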

How the results depend on the processing

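Gbp6 was called on TDD in SPF mice in all 20 fits that left out 1 mouse (log2 fold change -2.25 to -1.79) and in 11 of 11 other settings (-2.04 to -1.65), and with ABX on CD likewise (-1.51 to -1.05 and -1.31 to -1.02). Without the fold limit, 6 members were lower on TDD in SPF mice (7.73% of all genes) and none on TDD in ABX-treated mice (1.08%). With ABX, 8 were lower on CD (7.43%) and 5 on TDD (8.3%). DESeq2 called 1 member on TDD in ABX-treated mice, beside 0.601% of all genes. With ABX on TDD, 0 members were called by limma-voom, by limma on log2 TPM with either pseudocount, with the replicate block, and with only the groups compared; the cause was not tested. Leaving out 1 mouse gave 1 to 3 called members on TDD in SPF mice (1 without CD mouse 5, TDD mouse 3 or TDD mouse 4). It gave 0 to 1 on TDD in ABX-treated mice, 0 to 1 with ABX on TDD and 0 to 1 for the interaction (Gbp6, without CD mouse 2). The share of all genes called in each of these fits is not given here.

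Some differences changed sign, most of them near 0, and the cause was not tested. On log2 TPM with pseudocounts of 1 and 0.1, Gbp9 on TDD in ABX-treated mice was 0.017 and 0.022, and with ABX on TDD Gbp2 was 0.056 and 0.063, Gbp3 0.038 and 0.045, and Gbp6 0.0080 and 0.011. The interaction of Gbp10, which was not near 0 in the main fit (-0.48), was 0.27 and 0.60. Leaving out 1 mouse gave -0.15 to 0.0039 for Gbp9 on TDD in ABX-treated mice, -0.026 to 0.23 for its interaction, and with ABX on TDD -0.062 to 0.012 for Gbp2, -0.0895 to 0.064 for Gbp3 and -0.16 to 0.035 for Gbp6.

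Mice with the same replicate number were treated as unpaired. Correlations of their deviations ran from -0.417 to 0.289 over 30 pairs, 5 were over 0.1, and 1 of 20 mice was closest to its own number. The labels name no pairing, and these correlations cannot exclude one. With the replicate block Gbp10 with ABX on TDD was -1.30, no longer under a q of 0.05, and the block changed no other member's call. Depth limited Gbp10 and Gbp11, at 2 to 44 and 2 to 13 counts per mouse.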
